A study of Mus musculus with 16 samples.

Results

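Mucin sulfation in the goblet cell was followed through 10 genes: the carbohydrate sulfotransferases Gal3st2, Gal3st1, Chst4 and Chst5, the synthases Papss1 and Papss2, the plasma membrane sulfate transporters Slc26a1 and Slc26a2, and the Golgi carriers Slc35b2 and Slc35b3. They were taken by gene symbol from count tables of 46882 rows. All 10 members had a row in both tables, and 9 of the 10 passed the filter on low counts; Slc26a1 did not. The 16 libraries came from sorted gut epithelium of RedMUC298trTg mice, 6 to 8 weeks old, and fell into 4 groups of 4. DC.GC is the goblet sort (mCherry-positive cells) of the distal colon, and DC.EC is the mCherry-negative epithelium of the same region, which the labels call colonocytes. Si8.GC and Si8.EC are the same sorts from the 8th section of the small intestine, the negative cells being called enterocytes there. Every group carries the transgene, an mCherry reporter of MUC2-producing cells; a C57Bl6 mouse was the negative control of the sort. The labels do not name the promoter that drives the reporter. The stated aim was to compare goblet cells with the rest of the epithelium. Each library is named by the S number of its title.

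Sulfate groups give colonic mucus much of its negative charge. A cell takes sulfate up through membrane transporters, and the PAPS synthases join it to ATP to make PAPS, the activated sulfate donor. Carriers bring PAPS into the Golgi, where sulfotransferases place the sulfate on galactose or N-acetylglucosamine of mucin O-glycans. Sulfated glycans mark the acidic mucins of the large bowel, and loss of Slc26a2 function in people causes skeletal dysplasia through undersulfated cartilage.

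Total counts ran from 11.9 to 18.5 M per library in DC.GC and from 14.9 to 17.7 M in DC.EC, against 37.4 to 40.5 M in Si8.GC and 30.8 to 41.1 M in Si8.EC. Mitochondrially encoded genes held 0% of the counts in all DC libraries, but 3.19% to 4.07% in Si8.GC and 6.07% to 8.36% in Si8.EC. Region, depth and count table therefore cannot be told apart, and RNA column type and sort cannot either. Muc2, the gel-forming mucin, averaged 10033 CPM in DC.GC and 39.9 CPM in DC.EC, and 39440.0 CPM in Si8.GC and 54.1 CPM in Si8.EC. CPM here is the count of a gene per M counts of its library, with library totals scaled by TMM factors (M stands for mega). All 8 goblet markers were higher in the goblet sort of both regions, and 9 of 11 absorptive markers in DC and 10 of 11 in Si8 were lower. Paneth cell markers summed to 13868 to 38501 CPM in Si8.GC and 812 to 2179 CPM in Si8.EC, while they summed to 21.8 to 25.2 CPM in DC.GC and 0.526 to 1.13 CPM in DC.EC, where Defa24, Defa17, Defa21 and Defa22 were at 0 in both sorts. Intraepithelial lymphocyte markers summed to 8.77 to 16.9 CPM in Si8.GC and 192 to 305 CPM in Si8.EC, and mast cell markers to 0.307 to 0.502 CPM in Si8.GC and 26.8 to 187 CPM in Si8.EC. Stromal markers summed to 2.51 to 2.87 CPM in DC.GC and 12.1 to 24.8 CPM in DC.EC, and to 2.62 to 4.07 CPM in Si8.GC and 21.5 to 24.5 CPM in Si8.EC. Of 9 enteroendocrine markers, 8 were lower in the goblet sort of each region. The part of these cell types in the results below was not tested.

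The Gal3st2 row moved in opposite directions in the 2 regions. Gal3st2 transfers sulfate to the 3-position of terminal galactose on mucin-type glycans. It lies on chromosome 1 (mm10, 93861306 to 93876494, plus strand) and has near-identical copies downstream on the same strand: Gal3st2b (93918311 to 93942650), and Gal3st2c (93990509 to 94017147). In the tables the copies stand under their older names Gm9994 and Gm6086. RefSeq also lists Gal3st2 as an older name of Gal3st2b, but the copies have rows of their own, so the row named Gal3st2 was taken as Gal3st2 itself. The coding sequences of all 3 are 1191 bp long. Gal3st2 and Gal3st2b differed at 6 positions, were 99.5% identical and shared a run of 569 bp with no difference. Gal3st2c differed from each of the others at 24 positions. How the authors' counting treated reads that match several copies is not given in the sources used here, so the division of reads between the copies is uncertain. The stretch below, coding positions 726 to 815 counted from the start codon in the GENCODE M21 transcripts (GRCm38), is where Gal3st2 and Gal3st2b differ most. It is shown because bases like these separate the copies within the coding sequence; capitals mark the 4 positions that differ among the 3.

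Gal3st2: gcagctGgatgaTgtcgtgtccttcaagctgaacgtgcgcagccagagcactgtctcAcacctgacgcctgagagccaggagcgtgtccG

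Gal3st2b: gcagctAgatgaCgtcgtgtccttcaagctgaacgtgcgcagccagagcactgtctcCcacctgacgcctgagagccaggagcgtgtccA

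Gal3st2c: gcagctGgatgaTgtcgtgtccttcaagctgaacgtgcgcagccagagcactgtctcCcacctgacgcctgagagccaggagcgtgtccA

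In this window Gal3st2 differed from Gal3st2b at 4 positions and from Gal3st2c at 2. The 250 bases before the RefSeq start of each copy (GRCm38.p6, plus strand) are shown because the copies differed in where they were expressed. They were searched on both strands for 5 motifs. CAGNTG is the E-box bound by Atoh1, the factor of the secretory lineage. The core of an SPDEF site was written as CCGGAT, for a factor of goblet cell maturation. For the intestinal CDX factors the letters were CAATAAA. An HNF4A site was represented by part of it, AAAGTCC. The TATA box was TATAAA. Capitals mark the matches.

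Gal3st2, chr1:93861094-93861343: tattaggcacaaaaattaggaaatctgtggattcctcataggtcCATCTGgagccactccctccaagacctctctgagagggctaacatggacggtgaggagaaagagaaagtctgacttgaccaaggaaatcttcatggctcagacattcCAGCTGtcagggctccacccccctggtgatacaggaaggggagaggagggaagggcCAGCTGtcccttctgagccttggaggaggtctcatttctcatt

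Gal3st2b, chr1:93918187-93918436: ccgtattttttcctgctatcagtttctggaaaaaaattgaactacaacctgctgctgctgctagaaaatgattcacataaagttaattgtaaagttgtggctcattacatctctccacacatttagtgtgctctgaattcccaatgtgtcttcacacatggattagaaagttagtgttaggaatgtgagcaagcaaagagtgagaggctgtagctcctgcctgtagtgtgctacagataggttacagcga

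Gal3st2c, chr1:93990255-93990504: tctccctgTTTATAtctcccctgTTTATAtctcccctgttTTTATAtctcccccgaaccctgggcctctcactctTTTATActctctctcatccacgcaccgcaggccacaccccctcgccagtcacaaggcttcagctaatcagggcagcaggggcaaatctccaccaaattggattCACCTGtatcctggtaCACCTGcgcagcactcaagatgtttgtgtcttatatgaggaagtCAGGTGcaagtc

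The Gal3st2 window held CAGNTG 3 times, first bases at -206, -99 and -43 from the start. That of Gal3st2c held it 3 times, at -72, -56 and -12, and TATAAA 4 times, at -242, -227, -210 and -175. The Gal3st2b window held none of the 5 motifs. That window ends at 93918436, past the GENCODE start of the gene at 93918311, so part of it lies within the gene in that annotation. The Gal3st2 window, ending at 93861343, also runs past its GENCODE start at 93861306. The Gal3st2c window ends before its GENCODE start, so the windows are not placed alike in that annotation. Among 32851 promoter windows of the same length, 44.8% held CAGNTG and 12.4% held the TATA box; the letters for SPDEF were in 4.94%, those for CDX factors in 4.2% and those for HNF4A in 3.58%. A match is only a string of letters, and a window without one says nothing about the factor.

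Gal3st2 had 51.5, 38.5, 58.8 and 42.3 CPM in DC.GC libraries S9, S11, S13 and S18, against 0.420, 0.259, 0.357 and 0.483 CPM in DC.EC libraries S10, S12, S14 and S17. In the small intestine it had 30.2, 24.6, 40.8 and 31.7 CPM in Si8.GC libraries S2, S4, S6 and S8, against 81.9, 76.2, 103 and 105 CPM in Si8.EC libraries S1, S3, S5 and S7. The groups did not overlap in either region, but the high group was the goblet sort in the colon and the other epithelium in the small intestine. The log2 fold change was 6.95 ± 0.26 (SE) in DC, or 123-fold higher in goblet cells (adjusted p = 1.07e-13, edgeR's quasi-likelihood test with Benjamini-Hochberg adjustment over 16001 genes, as for every adjusted p below unless named otherwise). In Si8 it was -1.52 ± 0.15, or 2.87-fold lower in goblet cells (adjusted p = 7.16e-08). The difference between the 2 goblet effects was 8.47 ± 0.31 on the log2 scale (adjusted p = 4.74e-13). Between regions, Gal3st2 was 236-fold lower in DC.EC than in Si8.EC (adjusted p = 5.66e-15). It was higher in DC.GC than in Si8.GC by a log2 fold change of 0.59 ± 0.15 (adjusted p = 0.00246), and the libraries of these groups overlapped. As these are bulk samples, fewer cells of a type and less RNA per cell cannot be told apart in this or any later comparison. The labels do not say whether the libraries came from separate mice, so each p measures the spread between libraries, which may be technical.

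Both copies were higher in the goblet sort of each region. Gal3st2b had 46.0, 37.3, 47.5 and 44.0 CPM in DC.GC libraries S9, S11, S13 and S18, while the DC.EC libraries lay between 0.105 and 0.297 CPM. In Si8 it had 3.48 to 5.27 CPM in the goblet libraries and 0.139 to 0.648 CPM in the others. Gal3st2c was the copy with the most counts in the colon, at 260, 179, 263 and 201 CPM in the same 4 DC.GC libraries. It lay at 0.389 to 1.54 CPM in DC.EC, at 0.703 to 1.31 CPM in Si8.GC and at 0.0648 to 0.244 CPM in Si8.EC. Thus Gal3st2c was high in 1 group only, Gal3st2b was highest there, and the Gal3st2 row was low in DC.EC alone. The goblet effect of Gal3st2b was 8.03 ± 0.31 in DC (adjusted p = 8.06e-14) and 3.89 ± 0.28 in Si8 (adjusted p = 6.77e-10). Without Si8.EC S7, the highest library of its group, the Si8 effect was 4.65 and the difference between the regions 3.39, against 4.14 with all libraries. For Gal3st2c it was 7.88 ± 0.24 in DC (adjusted p = 1.26e-14) and 3.09 ± 0.42 in Si8 (adjusted p = 4.91e-06). Goblet cells of the colon exceeded those of the small intestine 207-fold for Gal3st2c (adjusted p = 2.43e-15) and 10.5-fold for Gal3st2b (adjusted p = 1.14e-11).

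Of the counts on the 3 rows, Gal3st2c held 71.0% ± 1.28 in DC.GC, Gal3st2 15% ± 0.658 and Gal3st2b 13.9% ± 1.26 (SD, n = 4 libraries). Gal3st2 itself held 85.6% ± 1.39 in Si8.GC and 99.6% ± 0.177 in Si8.EC. The shares were thus reversed between the goblet cells of the regions, with little spread among libraries. The exons of Gal3st2c span 9667 bp, against 3063 bp for Gal3st2 and 2748 bp for Gal3st2b; per kb of exon the 3 stood closer in DC.GC, at 23.3 CPM for Gal3st2c, 15.6 CPM for Gal3st2 and 15.9 CPM for Gal3st2b. These lengths make no allowance for the stretches that the copies share. The sum of the rows does not depend on how counted reads were divided among them. Reads that were not counted are missing from it. The sum was 317 ± 55.4 CPM in DC.GC and 1.49 ± 0.581 CPM in DC.EC, and 37.1 ± 7.24 CPM in Si8.GC and 91.8 ± 14.6 CPM in Si8.EC. The groups of a region did not overlap in this sum, which was higher in the goblet sort of DC and lower in that of Si8, as for the Gal3st2 row. Gal3st2b and Gal3st2c in DC.EC stood at 0.373% and 0.419% of their DC.GC level, and Muc2 at 0.398%. In Si8.EC, Gal3st2 stood at 287% of its Si8.GC level, against 0.137% for Muc2.

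**Figure D1:**
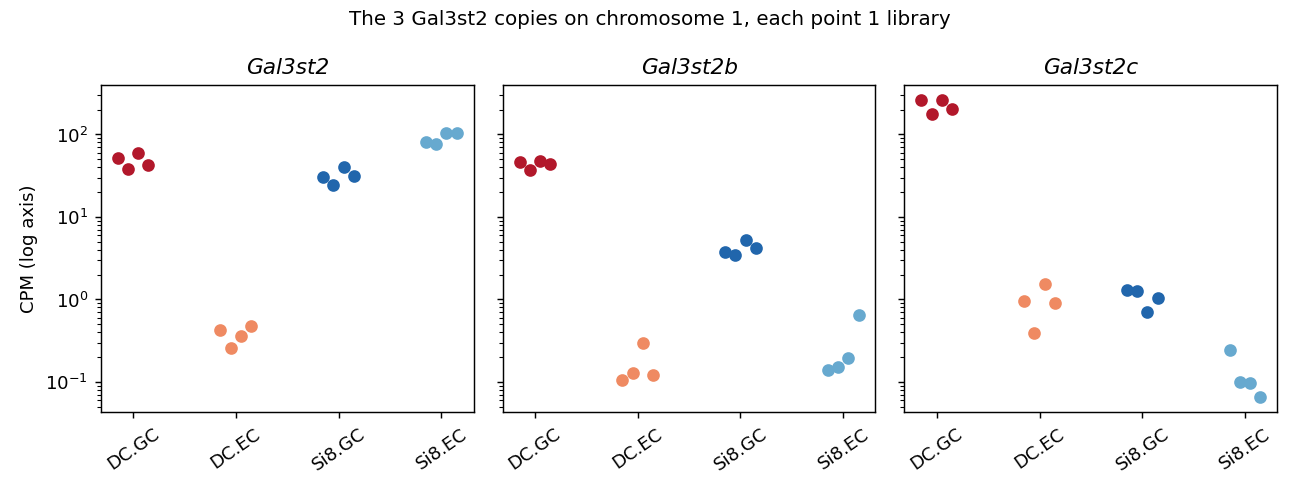
CPM (log axis) of Gal3st2, Gal3st2b and Gal3st2c in each of the 16 libraries, by group; each point is 1 library. Gal3st2 lies at 24.6 to 105 CPM in every library outside DC.EC, whereas Gal3st2c exceeds 1.54 CPM only in DC.GC.

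Chst4 was higher in goblet cells of both regions. It sulfates N-acetylglucosamine at the 6-position, and in mice it is also known for making selectin ligands on high endothelial venules. It lies on chromosome 8 (110029153 to 110039740, minus strand). Chst4 had 162, 152, 178 and 155 CPM in DC.GC S9, S11, S13 and S18, against 25.0, 18.6, 30.5 and 22.8 CPM in DC.EC S10, S12, S14 and S17. In Si8 it had 130, 120, 195 and 141 CPM in goblet libraries S2, S4, S6 and S8, against 20.1, 36.6, 31.4 and 8.98 CPM in S1, S3, S5 and S7 of the other sort. No goblet library overlapped any other library, and Si8.EC was the group with the widest relative spread. Chst4 was 6.67-fold higher in DC goblet cells (log2 2.74 ± 0.33, adjusted p = 6.44e-06) and 6.02-fold higher in Si8 goblet cells (log2 2.59 ± 0.32, adjusted p = 7.59e-06). The 2 effects differed by 0.15 ± 0.44 on the log2 scale (95% interval -0.80 to 1.10, adjusted p = 0.834). The other epithelium of the 2 regions differed by less than 0.01 (adjusted p = 0.991), with a 95% interval from -0.70 to 0.69. Chst4 in the other sort stood at 15% of the goblet level in DC and 16.5% in Si8, against 0.398% and 0.137% for Muc2. The reporter of the sort marks MUC2-producing cells, so Muc2 is not an independent measure of goblet cells left in the other sort. Which cells there held Chst4 was not tested.

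Chst5 was counted in goblet cells of the colon and hardly elsewhere. This N-acetylglucosamine 6-O-sulfotransferase is known in mice for keratan sulfate of the cornea, and it lies on the same chromosome at 111889136 to 111910447, minus strand. The DC.GC libraries S9, S11, S13 and S18 had 22, 16, 31 and 8 counts. DC.EC had 2 counts over its 4 libraries, Si8.GC had 0 and Si8.EC had 3. Its level was thus low throughout, 1.04 ± 0.469 CPM in DC.GC (SD, n = 4). The ratio of depth-scaled counts between DC.GC and DC.EC was 36.0, with a 95% interval from 9.63 to 302 that covers counting error only (adjusted p = 5.13e-06). Against Si8.GC, taken at a floor of 3 counts over the group, the ratio was 50.8. With Si8.GC at its 0 counts, counting error in both groups puts the 95% lower limit at 40.3-fold (adjusted p = 9.32e-08). No fold is given for Si8, where both groups were at or under the floor (adjusted p = 0.0865). Chst5 passed the filter on low counts only through DC.GC, the group where it was high, so its calls are given as a description and are left out of the counts of genes below.

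Gal3st1, which makes sulfatide, a sulfated membrane glycolipid, was lower in goblet cells of both regions. In DC it had 16.9 to 21.8 CPM in the goblet libraries and 26.4 to 32.2 CPM in the others. In Si8 the goblet libraries had 15.4, 14.8, 14.8 and 11.2 CPM (S2, S4, S6 and S8), against 15.6 to 20.5 CPM. The groups did not overlap in either region, though in Si8 they nearly met. The log2 fold change was -0.60 ± 0.12 in DC (adjusted p = 2.28e-04) and -0.36 ± 0.11 in Si8 (adjusted p = 0.0108). Without Si8.GC S8 the Si8 call was lost (log2 -0.26, adjusted p = 0.0545; 0.00154 to 0.0590 over all alternatives).

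**Figure D2:**
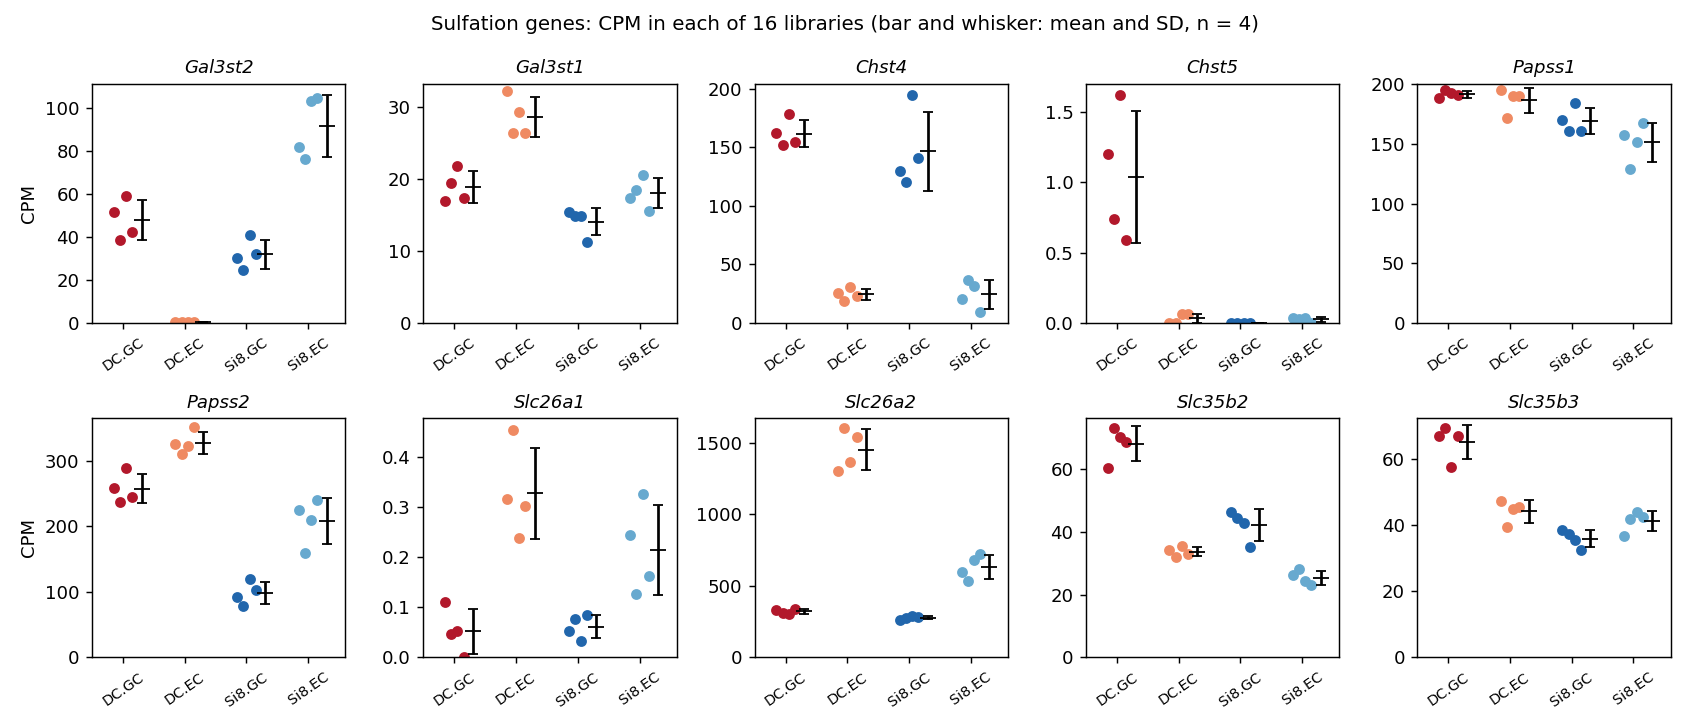
CPM of the 10 genes in each of the 16 libraries (points), with the mean and SD of each group of 4 beside them; every axis starts at 0 and has its own scale. Chst4 and Slc35b2 are higher in the goblet sort than in the other sort of both regions, Slc26a2 is highest in DC.EC at 1302 to 1603 CPM, and Slc26a1 stays under 0.5 CPM in every library.

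The PAPS synthases behaved differently from each other. Papss1 (chromosome 3) and Papss2 (chromosome 19) encode enzymes that each carry both the ATP sulfurylase and the APS kinase activity. Papss1 averaged 192 ± 2.97 CPM in DC.GC and 187 ± 10.5 CPM in DC.EC, and 169 ± 11.1 CPM in Si8.GC and 151 ± 16.3 CPM in Si8.EC (SD, n = 4). Its goblet effect missed the threshold in both regions, at 0.04 ± 0.08 in DC (95% interval -0.13 to 0.20, adjusted p = 0.699) and 0.16 ± 0.08 in Si8 (adjusted p = 0.0830). Papss2 had 258, 238, 289 and 245 CPM in DC.GC S9, S11, S13 and S18, against 326, 310, 322 and 351 CPM in DC.EC S10, S12, S14 and S17. It had 92.6, 78.6, 119 and 103 CPM in Si8.GC S2, S4, S6 and S8, against 225, 159, 209 and 240 CPM in Si8.EC S1, S3, S5 and S7. All goblet libraries lay below all other libraries of their region, with the larger gap in Si8. The log2 fold change of Papss2 was -0.35 ± 0.12 in DC (adjusted p = 0.0215) and -1.08 ± 0.12 in Si8 (adjusted p = 3.11e-07), and the difference between them was 0.74 ± 0.17 (adjusted p = 0.00271). The DC call was lost without DC.EC S17 (adjusted p = 0.0626), DC.GC S18 (0.0591) or DC.GC S11 (0.0668), in a range of 3.63e-04 to 0.0668 over all alternatives.

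Compared per kb of exon, Papss2 exceeded Papss1 in each group except Si8.GC. The ratio of Papss2 to Papss1 was 1.10 ± 0.100 in DC.GC and 1.44 ± 0.0703 in DC.EC. It was 0.476 ± 0.0626 in Si8.GC and 1.12 ± 0.0783 in Si8.EC, so in goblet cells of the small intestine Papss1 was the main synthase by transcript level. Individual DC.GC libraries ran from 0.997 to 1.23, so in that group the order of the synthases was not separated from library spread. Those of Si8.EC ran from 1.01 to 1.18. Per kb of the longest transcript, Papss2 and Papss1 stood closer, at 70.8 and 68.3 CPM in DC.GC and 57.3 and 53.9 CPM in Si8.EC. Whether the order held in each Si8.EC library with that length was not tested.

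Slc26a2 fell in goblet cells of both regions, and further in the colon. The protein exchanges sulfate for other anions at the cell surface. The gene lies on chromosome 18 (61192919 to 61211612, minus strand). It had 329, 309, 307 and 341 CPM in DC.GC S9, S11, S13 and S18, against 1302, 1603, 1365 and 1539 CPM in DC.EC S10, S12, S14 and S17. In Si8 it had 264, 273, 292 and 285 CPM in goblet libraries S2, S4, S6 and S8, against 599, 532, 683 and 720 CPM in S1, S3, S5 and S7. The goblet sorts of the regions lay close together, while the other epithelium of the colon stood far above that of the small intestine. The fall was 4.52-fold in DC (log2 -2.18 ± 0.10, adjusted p = 6.57e-13) and 2.28-fold in Si8 (log2 -1.19 ± 0.10, adjusted p = 2.90e-09). The DC effect was more negative than the Si8 effect by -0.99 ± 0.14 (adjusted p = 1.28e-05). DC.EC exceeded Si8.EC by 1.20 ± 0.10 on the log2 scale (adjusted p = 1.60e-09), whereas DC.GC and Si8.GC differed by 0.21 ± 0.10 (adjusted p = 0.0682).

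Slc26a1, the other sulfate and anion exchanger of the set, was barely counted. DC.GC libraries S9, S11, S13 and S18 had 2, 1, 1 and 0 counts, against 6, 7, 4 and 5 in DC.EC S10, S12, S14 and S17. Si8.GC libraries S2, S4, S6 and S8 had 2, 3, 1 and 3 counts, against 7, 5, 10 and 5 in Si8.EC S1, S3, S5 and S7. In both regions the goblet libraries were below the others without overlap in CPM. An exact two-sided permutation test on log2(CPM + 0.5) gave p = 0.0286 in each region, the smallest 4 against 4 libraries allow, and 0.0571 after adjustment over the 4 comparisons made. Its exons on chromosome 5 overlap those of Idua on the opposite strand, and the strand setting of the counting is not given in the sources used here, so these few reads may belong to either gene.

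The PAPS carriers of the Golgi membrane, Slc35b2 and Slc35b3, were both higher in goblet cells of the colon. Slc35b2 (chromosome 17) had 60.2, 73.1, 70.0 and 68.7 CPM in DC.GC S9, S11, S13 and S18, against 34.2, 32.1, 35.5 and 32.8 CPM in DC.EC S10, S12, S14 and S17. In Si8 it had 46.3, 44.5, 42.7 and 35 CPM in goblet libraries S2, S4, S6 and S8, against 26.3, 28.0, 24.2 and 23.0 CPM in S1, S3, S5 and S7. Goblet libraries were above the others in both regions with no overlap. The log2 fold change was 1.02 ± 0.09 in DC (adjusted p = 1.51e-08) and 0.73 ± 0.09 in Si8 (adjusted p = 1.03e-06), and the effects differed by 0.29 ± 0.13 (adjusted p = 0.102). Slc35b3 (chromosome 13) had 67.1, 69.4, 57.7 and 67 CPM in DC.GC S9, S11, S13 and S18, against 47.5, 39.4, 44.9 and 45.5 CPM in DC.EC S10, S12, S14 and S17. In Si8 it had 32.6 to 38.5 CPM in the goblet libraries and 36.7 to 43.9 CPM in the others. The colon groups were apart and the small intestinal ones overlapped. The log2 fold change was 0.56 ± 0.08 in DC (adjusted p = 1.26e-05) and -0.20 ± 0.08 in Si8 (adjusted p = 0.0434). The Si8 call was lost in 17 of 23 alternatives, with adjusted p from 0.00877 to 0.225 over them, while the difference between the regions was 0.76 ± 0.12 (adjusted p = 5.39e-05). Slc35b3 shares exon sequence with 5033403F01Rik on the opposite strand. Per kb of exon, the ratio of Slc35b2 to Slc35b3 was 1.95 ± 0.242 in DC.GC and 1.42 ± 0.0900 in DC.EC. It was 2.18 ± 0.115 in Si8.GC and 1.16 ± 0.163 in Si8.EC. The order of the carriers depended on the length used, as the exons of Slc35b3 span 5798 bp and its longest transcript 2486 bp. Per kb of the longest transcript, Slc35b2 and Slc35b3 had 29.2 and 26.3 CPM in DC.GC and 18.1 and 14.5 CPM in Si8.GC. In the other sorts Slc35b3 was the higher, with 17.8 against 14.5 CPM in DC.EC and 16.6 against 10.9 CPM in Si8.EC.

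**Figure D3:**
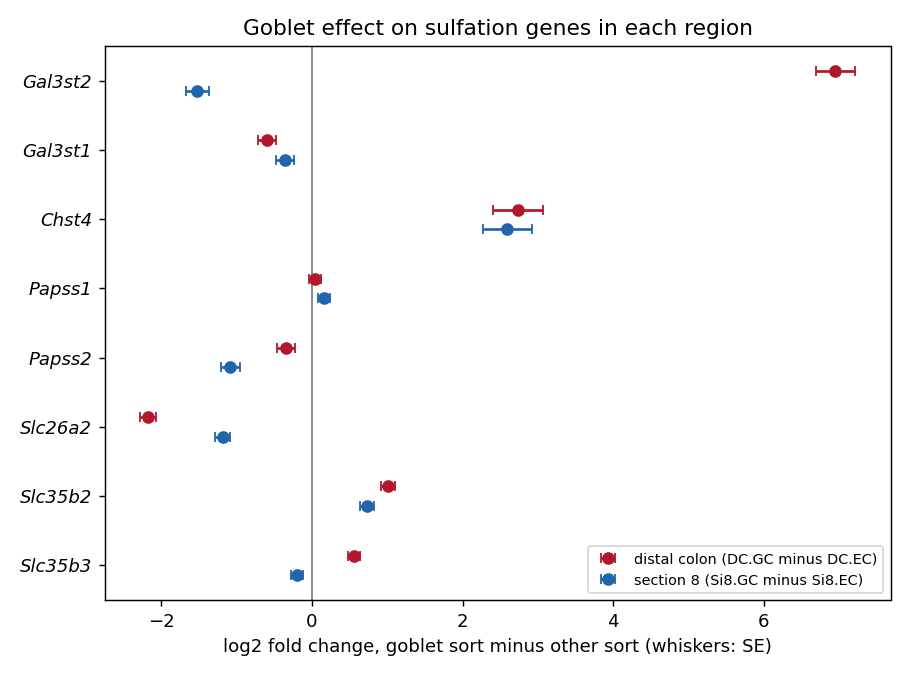
Log2 fold change of the goblet sort over the other sort for 8 genes in DC (red) and Si8 (blue), with SE whiskers. Only Gal3st2 and Slc35b3 lie on opposite sides of 0 in the 2 regions; Gal3st2 is at 6.95 in DC and -1.52 in Si8, and the Si8 value of Slc35b3 lost its call in 17 of 23 alternatives.

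Of the 8 genes that did not pass the filter through 1 group alone, 4 rose in goblet cells of the colon (Gal3st2, Chst4, Slc35b2 and Slc35b3), 3 fell (Gal3st1, Papss2 and Slc26a2) and Papss1 did not pass. Over all genes tested in DC, 55.7% were called, 27.8% higher and 27.9% lower. The libraries of the 2 sorts did not overlap for 7 of the 8, against 53.8% of all genes. In Si8, 2 rose (Chst4 and Slc35b2), 5 fell (Gal3st2, Gal3st1, Papss2, Slc26a2 and Slc35b3) and Papss1 did not pass; over all genes, 64.9% were called, 33.1% higher and 31.8% lower. Here the libraries did not overlap for 6 of the 8, against 53.9%. With calls this common, the counts by themselves do not set these genes apart. The 5 that fell in Si8 became 3 without Si8.GC S8 or when libraries were scaled by their totals alone. The difference between the goblet effects passed for 4 of 8, against 32.1% of all genes: Gal3st2, Papss2 and Slc35b3 were more positive in DC and Slc26a2 more negative.

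Between goblet cells of the 2 regions, 5 of these 8 were higher in DC.GC and 0 were lower, against 30.6% and 31.5% of all genes, of which 62.1% were called; libraries did not overlap for 6 of the 8, against 57.2%. The 5 higher genes were Gal3st2, Gal3st1 (log2 0.43, adjusted p = 0.00388), Papss2 (1.39 ± 0.12, adjusted p = 1.11e-08), Slc35b2 (0.69, adjusted p = 1.98e-06) and Slc35b3 (0.86, adjusted p = 3.53e-08). Chst4 did not pass, at 0.14 ± 0.30 (95% interval -0.51 to 0.79, adjusted p = 0.702), and Papss1 missed at 0.18 ± 0.08 (adjusted p = 0.0514). Between the other sorts, 5 of the 8 were higher in DC.EC (33.3% of all genes) and Gal3st2 alone was lower (33.6% of all genes), with 66.9% of all genes called; libraries did not overlap for 6 of the 8, against 59.6%. Those 5 were Gal3st1 (0.67), Papss1 (0.30), Papss2 (0.65), Slc26a2 (1.20) and Slc35b2 (0.40), with adjusted p from 1.60e-09 for Slc26a2 to 0.00224 for Papss1. Slc35b3 differed by 0.10 (adjusted p = 0.288). With libraries scaled by their totals alone, 7686 genes were higher and 2711 lower in DC.GC than in Si8.GC, against 4902 and 5041 here. These region values rest on tables that differ in mitochondrial genes and depth. The goblet comparisons of a region share libraries with these, so they are not independent of each other.

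Per kb of exon, the order of levels changed with the sort. In DC.GC the top genes were Chst4 at 71.0 CPM per kb, Papss2 at 69.2 and Papss1 at 62.9, and the SDs of Chst4 (5.19) and Papss2 (6.08) exceed the gap between them. Slc26a2 followed at 26.0, Slc35b2 at 21.9, Gal3st2 at 15.6, Slc35b3 at 11.3 and Gal3st1 at 9.23 CPM per kb. In DC.EC the leader was Slc26a2 at 117 CPM per kb, ahead of Papss2 at 88.0 and Papss1 at 61.2, and every sulfotransferase was at 14 or less. Si8.GC was again led by Chst4, at 64.3 CPM per kb with an SD of 14.7, next to Papss1 at 55.4. In Si8.EC, Papss2 at 56.0, Slc26a2 at 51.2 and Papss1 at 49.6 CPM per kb were within their SDs of each other, and Gal3st2 at 29.8 was the leading sulfotransferase. Thus, per kb of exon, the most abundant sulfotransferase among the members was Chst4 in both goblet sorts, Gal3st1 in DC.EC and Gal3st2 in Si8.EC. This ranking leaves out the copies of Gal3st2, which in DC.GC had 23.3 (Gal3st2c) and 15.9 CPM per kb (Gal3st2b). Without scaling for length, Gal3st2 and its copies summed to 317 CPM in DC.GC, against 162 CPM for Chst4. Reads of the copies that were not counted are missing from these values, and the division of the others is uncertain. Chst5 and Slc26a1 stayed under 0.5 CPM per kb in all 4 groups. With the length of the longest transcript in place of the exon union, Slc26a2 led Si8.EC at 81.1 CPM per kb. In DC.GC, that length put Slc35b3 at 26.3 CPM per kb, above Gal3st2 at 16.8.

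**Figure D4:**
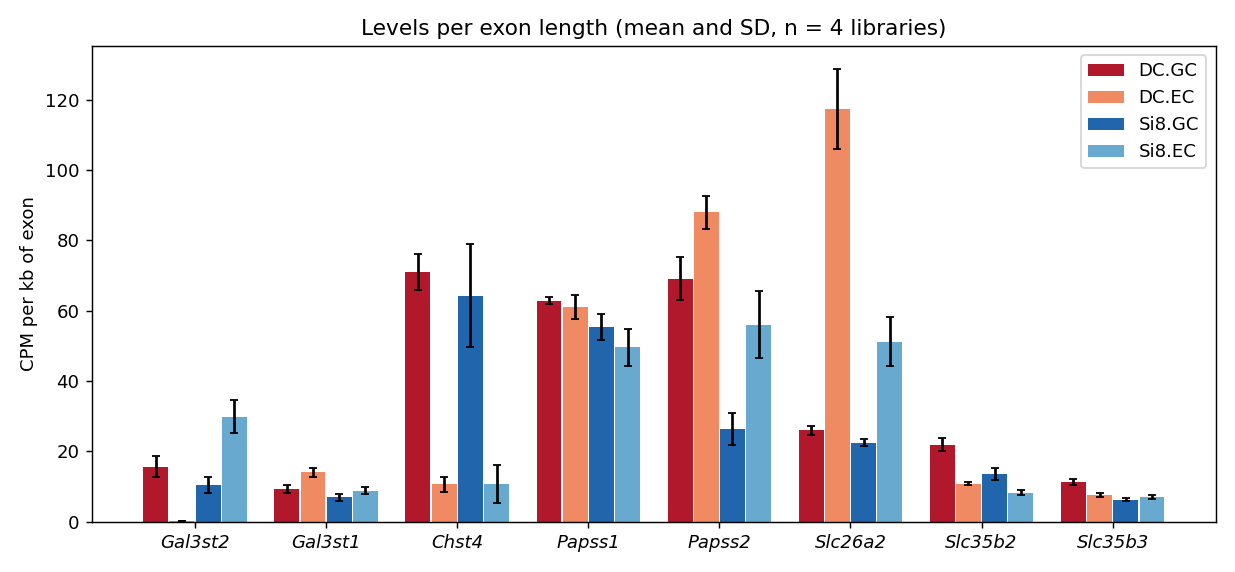
Mean CPM per kb of exon of 8 genes in the 4 groups, with SD bars (n = 4 libraries). Chst4 is the tallest bar of both goblet sorts at 71.0 and 64.3, and Slc26a2 reaches 117 in DC.EC.

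The genes around these steps were read from the same fit. PAP, left over when a sulfate group is transferred, is removed by Impad1 in the Golgi and by Bpnt1 in the cytosol. Impad1 averaged 294 ± 23.4 CPM in DC.GC and 131 ± 8.31 CPM in DC.EC, and 360 ± 51.9 CPM in Si8.GC and 130 ± 9.84 CPM in Si8.EC. It rose in goblet cells of both regions, by 1.17 ± 0.10 in DC (adjusted p = 3.71e-09) and 1.47 ± 0.10 in Si8 (adjusted p = 1.37e-10). Bpnt1 fell in both, by 0.50 in DC (adjusted p = 9.64e-06) and 0.72 in Si8 (adjusted p = 6.38e-08).

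Of 11 other sulfate and anion carriers, 6 were tested. In DC 1 rose and 3 fell, against 27.8% and 27.9% of all genes (median log2 -1.22, against 0.03 over all genes). In Si8 0 rose and 5 fell, against 33.1% and 31.8% (median -1.51, against 0.03). Slc13a1, the sodium-sulfate cotransporter, averaged 2.16 CPM in DC.GC and 9.82 CPM in DC.EC, and 86.4 CPM in Si8.GC and 658 CPM in Si8.EC. It fell by 2.18 in DC (adjusted p = 2.34e-06) and fell by 2.93 in Si8 (adjusted p = 1.33e-09). Slc26a3, the chloride-bicarbonate exchanger of absorptive cells, averaged 51.1 CPM in DC.GC and 1904 CPM in DC.EC (log2 -5.22 ± 0.16, adjusted p = 3.01e-15). It also fell in Si8, by 1.77 (adjusted p = 2.13e-09). Slc26a6, another anion exchanger, averaged 54.8 CPM in Si8.GC and 477 CPM in Si8.EC (log2 -3.12 ± 0.14, adjusted p = 1.18e-12), and in DC it averaged 2.4 CPM in the goblet sort and 1.64 CPM in the other (adjusted p = 0.0546). The 1 called higher in DC was Slc26a8, which passed the filter only through DC.GC, the group where it was high. The number called higher was 0 without Si8.GC S2 or without Si8.GC S6. That number was 2 with library totals, without the filter on low counts, without DC.EC S14 or without DC.GC S9. Slc26a8 falls outside the naming rule and was named after its values were seen, as were Cdo1, Sult1c2 and Chst10 below. The absorptive markers given above were lower in goblet cells too, and their part here was not tested.

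Among enzymes that form sulfate from cysteine and sulfide, Ethe1 and Tst moved in opposite directions in the 2 regions. Of 11 tested among 12 listed, 2 rose and 7 fell in DC, against 27.8% and 27.9% of all genes (median -0.81). In Si8 5 rose and 4 fell, against 33.1% and 31.8% (median 0.18). Ethe1, the mitochondrial persulfide dioxygenase, averaged 96.1 CPM in DC.GC and 399 CPM in DC.EC (log2 -2.05 ± 0.10, adjusted p = 2.08e-12), but 41.8 CPM in Si8.GC and 29.1 CPM in Si8.EC (0.52 ± 0.10, adjusted p = 1.71e-04). Tst, the sulfurtransferase rhodanese, did likewise, at -1.51 in DC (adjusted p = 7.68e-13) and 0.35 in Si8 (adjusted p = 3.64e-04). The difference between the regions passed for 6 of the 11, with 5 more negative in DC, against 32.1% of all genes in either direction. It was -2.57 ± 0.14 for Ethe1 (adjusted p = 7.12e-11) and -1.86 ± 0.10 for Tst (adjusted p = 5.23e-11). Cbs, which makes cystathionine from homocysteine and serine, rose in both, by 1.39 in DC (adjusted p = 2.07e-08) and 0.98 in Si8 (adjusted p = 3.68e-05). Cdo1, the cysteine dioxygenase, was the other gene that rose in DC (log2 0.90, adjusted p = 8.64e-05), and it rose in Si8 as well (0.53, adjusted p = 0.00659). Mpst, a sulfurtransferase of mercaptopyruvate, fell by 1.33 in DC (adjusted p = 2.07e-09) and 1.08 in Si8 (adjusted p = 2.88e-08), and Got1, the cytosolic aspartate aminotransferase, fell by 0.81 in DC (adjusted p = 6.64e-07) and 0.80 in Si8 (adjusted p = 3.21e-07).

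Cytosolic sulfotransferases, which sulfate steroids and phenols, were lower in goblet cells for 5 of 5 tested in DC and 3 of 5 in Si8, among 12 listed (medians -1.65 and -1.08). Over all genes 27.9% fell in DC and 31.8% in Si8, and the 1 that rose in Si8 is given below. Sult2b1 averaged 3.57 CPM in DC.GC and 32.7 CPM in DC.EC, and 21.7 CPM in Si8.GC and 130 CPM in Si8.EC. It fell by 3.20 in DC (adjusted p = 6.85e-13) and by 2.58 in Si8 (adjusted p = 1.27e-12). Sult1b1 fell by 2.91 in DC (adjusted p = 3.67e-13) and 1.98 in Si8 (adjusted p = 4.75e-11), and Sult1d1 by 1.65 (adjusted p = 4.66e-12) and 1.08 (adjusted p = 1.88e-09). Sult1c2 was the 1 that rose (log2 0.79, adjusted p = 2.69e-05). The same PAPS pool of the cytosol feeds these enzymes and, through the carriers, the Golgi.

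Among Golgi sulfotransferases outside the members, Chst15 and Hs3st3b1 rose in goblet cells of both regions. Of the other carbohydrate sulfotransferases, 2 of 9 were tested; in DC 0 rose and 1 fell, in Si8 0 rose and 2 fell (medians -0.84 and -2.59). Chst8, known for sulfating pituitary hormones, averaged 0.627 CPM in DC.GC and 1.57 CPM in DC.EC (adjusted p = 8.35e-04), and 0.864 CPM in Si8.GC and 2.67 CPM in Si8.EC (adjusted p = 7.69e-06). Chst10, which makes the HNK1 glycan, was the other gene that fell in Si8 (log2 -3.56, adjusted p = 5.40e-06), though every Si8 library was under the 0.405 CPM of the filter. Among glycosaminoglycan and tyrosine sulfotransferases, 15 of 22 were tested; 6 rose and 3 fell in DC (median 0.12), and 3 rose and 4 fell in Si8 (median -0.06). Over all genes 55.7% were called in DC, 27.8% higher and 27.9% lower, and 64.9% in Si8, 33.1% higher and 31.8% lower. The 6 include Hs3st3a1 and the 3 that fell in DC include Hs3st5. Each of these passed the filter only through the DC group where it was high. Chst13, also tested, passed only through the goblet sorts. With the 2 groups of DC fitted alone, 4 rose. Chst15, a chondroitin sulfotransferase, averaged 22.9 CPM in DC.GC and 12.4 CPM in DC.EC, and 3.66 CPM in Si8.GC and 0.984 CPM in Si8.EC. It rose by 0.89 in DC (adjusted p = 5.57e-05) and 1.89 in Si8 (adjusted p = 6.42e-08). Hs3st3b1, a heparan sulfate 3-O-sulfotransferase, rose by 1.12 in DC (adjusted p = 3.39e-06) and 1.05 in Si8 (adjusted p = 1.07e-05). Its relative Hs3st3a1 rose in DC by 3.30 ± 0.36 (adjusted p = 1.71e-07), at 2.25 CPM in DC.GC and 0.222 CPM in DC.EC; it passed the filter only through DC.GC. Hs6st1, a heparan sulfate 6-O-sulfotransferase, fell by 0.72 in DC (adjusted p = 3.11e-07) and 0.38 in Si8 (adjusted p = 3.36e-04). In DC, Hs3st5 fell by 3.26 (adjusted p = 1.95e-05) and Chst11 by 1.61 (adjusted p = 0.00358), with group means under 2 CPM in both sorts of that region; Hs3st5 passed the filter only through DC.EC, where it was high.

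The last list held sulfatases, which remove sulfate, with their modifying factors Sumf1 and Sumf2. Of 12 tested among 15 listed, 6 rose and 3 fell in DC, against 27.8% and 27.9% of all genes (median 0.25), and 4 rose and 7 fell in Si8, against 33.1% and 31.8% (median -0.29). Arsg, a lysosomal sulfatase, averaged 10.9 CPM in DC.GC and 3.34 CPM in DC.EC, and 9.92 CPM in Si8.GC and 2.37 CPM in Si8.EC. It rose by 1.69 in DC (adjusted p = 2.15e-08) and 2.07 in Si8 (adjusted p = 5.70e-10). The extracellular heparan sulfatases Sulf1 and Sulf2 fell in both regions, Sulf1 with log2 fold changes of -2.41 in DC (adjusted p = 2.96e-06) and -1.83 in Si8 (adjusted p = 0.0130), Sulf2 with -1.01 (adjusted p = 7.39e-07) and -0.84 (adjusted p = 7.46e-07). Sulf1 in Si8 was under 0.2 CPM on average in both sorts, and its call there was lost without Si8.EC S1. The stromal markers given above were lower in the goblet sort of both regions too; their part in the values of Sulf1, Sulf2 and Chst11 was not tested. Arsa, the lysosomal enzyme that removes sulfate from sulfatide, fell in Si8 by 1.05 (adjusted p = 5.06e-08), and in DC it averaged 17.7 CPM in DC.GC and 17.3 CPM in DC.EC (adjusted p = 0.843).

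**Figure D5:**
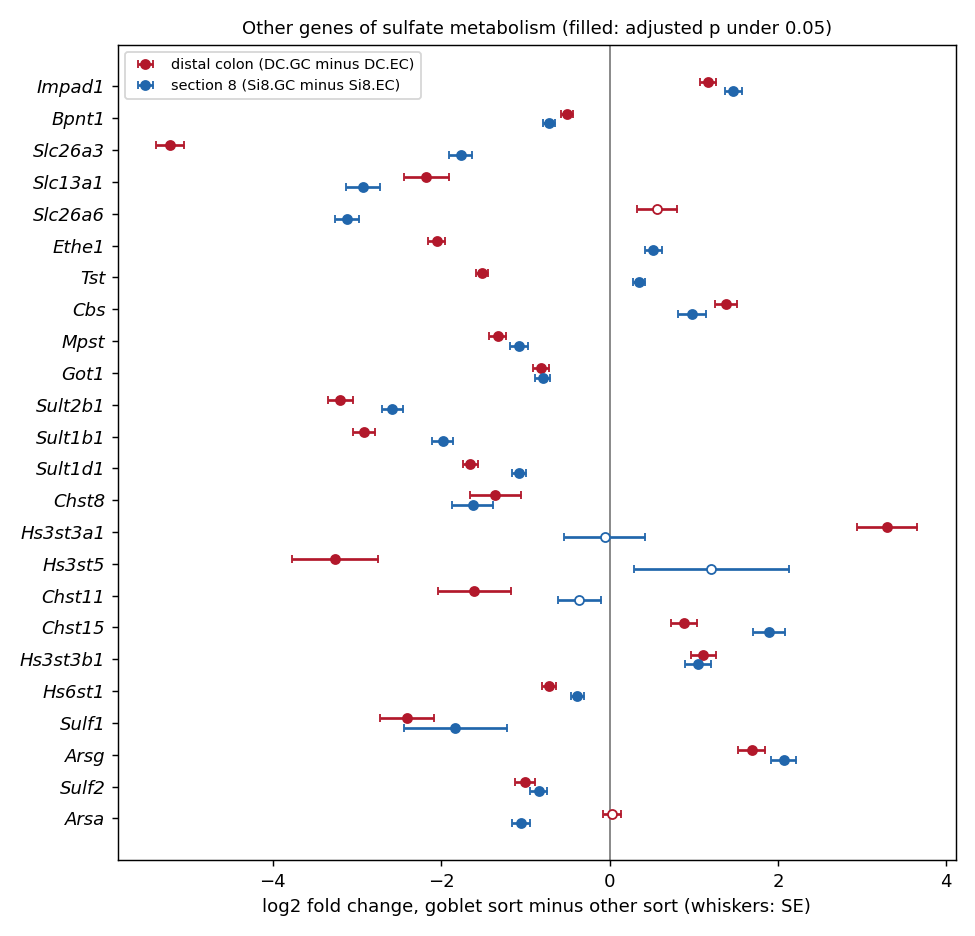
Log2 fold change of the goblet sort over the other sort, with SE whiskers, for the named genes of the surrounding lists in DC (red) and Si8 (blue); filled points have an adjusted p under 0.05. Ethe1 and Tst are left of 0 in DC and right of 0 in Si8, and Slc26a3 is the leftmost point at -5.22.

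The genes whose levels followed each member most closely were ranked by Pearson's r of log2 CPM over the 16 libraries, given as a description, since all points come from the same 4 groups. For Gal3st2 they were Mical1 (0.98), Eepd1 (0.98) and Dll4 (0.97), and for Chst4 Tmed9, Plekhg5 (0.98 each) and Galk2 (0.97). Slc26a2 was followed by Ahcyl2 (0.995), Endod1 (0.993) and Trpm6 (0.992), Papss2 by Lrrfip1 (0.98), Map2k1 and Pcx (0.97 each), and Slc35b2 by Notch4 (0.99), Cdc16 and Cd177 (0.98 each). Gal3st2b was closest to Reg4 (0.99), Atp6ap2 and Cacna2d2 (0.99 each), and Gal3st2c to Rgs16, Rbp4 and Dazl (0.99 each). Papss1 had the weakest partners, P4ha1 (0.91) and Pld3 (0.90). Gal3st1 was followed by Dhcr7, Cox6a1 and Nrap (0.95 each), and Slc35b3 by Pccb, Mtf2 and Klhl25 (0.95 each). Chst5, with few counts, was followed by 9430093N23Rik, Hspb7 and 4930438A08Rik (0.98 each).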

How the data were processed

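RNA of sorted epithelial cells was sequenced from 16 libraries, 4 in each of 4 groups given by the labels. Libraries were TruSeq stranded total RNA after ribosomal RNA removal, read from both ends, with MinElute columns for goblet lysates and Mini columns for the others, per the labels' protocols. The authors deposited raw read counts per gene in a table for each region. The build was mm10, and quality control, alignment, counting and normalization tools were listed as STAR 2.4.0f, FastQC 0.11.2, DESeq2 1.14 and HTSeq 0.6.1p1, per the submitters' processing notes; which annotation, strand setting and parameters were used is not given in the sources. A further deposited table of normalized values was not used.

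From the counts, 4 entries with a repeated symbol were left out, and edgeR 4.0.16 in R 4.3.3 was run with TMM factors, filterByExpr by group (minimum count 10), 1 fit over the 4 groups with no covariate, and robust quasi-likelihood tests of 5 contrasts. 16001 genes were tested. Calls used a Benjamini-Hochberg adjusted p under 0.05. SE was obtained by dividing the size of a log2 fold change by the root of its F statistic. Exon lengths, coordinates and coding sequences come from GENCODE M21 (GRCm38, the same build as mm10), and promoters and older gene names from RefSeq (GRCm38.p6). The fit was tested on simulated counts with known changes. Alternatives were DESeq2 1.42.0 with its size factors and Wald test, library totals, no filter, a fit of 2 groups, removal of mitochondrially encoded genes or of Muc2 and Fcgbp, and each library left out.

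The text names the 10 members, the copies Gal3st2b and Gal3st2c, up to 3 called genes with the largest changes per surrounding list and goblet effect (group mean of 1 CPM or more), and the 3 genes most alike to each member, of which 1 is not reported here. The members and lists were chosen with earlier results of these data known. Intervals on counts and floors cover counting error only.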

Additional observations from a re-analysis of the deposited data

Results flagged for a closer look

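By the test of the difference itself, the goblet effect differed between the regions for 4 of 8 members, against 32.1% of all genes. These 8 leave out Chst5, which passed the filter only through DC.GC, and Slc26a1, which did not pass it. The effect also differed for both copies of Gal3st2. On the log2 scale, DC minus Si8, the difference was 8.47 for Gal3st2 (adjusted p = 4.74e-13), 0.74 for Papss2 (0.00271), 0.76 for Slc35b3 (5.39e-05) and -0.99 for Slc26a2 (1.28e-05), each from edgeR's quasi-likelihood test. For the copies it was 4.14 for Gal3st2b (1.99e-05) and 4.78 for Gal3st2c (1.30e-04). For Chst5, which is not among the 4, the fitted value was 7.48 (0.00395). That value depends on the prior count, because Chst5 had 0 counts in Si8.GC and 3 in Si8.EC. It is given as a description, since Chst5 passed the filter on low counts only through DC.GC. Region, depth and count table cannot be told apart in these differences.

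In 48 groups of 4 libraries, 3 had a library set apart from the other 3 by Dixon's criterion, which chance meets in about 1 group in 20. Gal3st1 was at 11.2 CPM in Si8.GC S8, below the other 3. Gal3st2b was at 0.297 CPM in DC.EC S14 and at 0.648 CPM in Si8.EC S7, above the others in each case; these are 5 and 20 counts.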

How the results depend on the processing

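The 23 alternatives each changed 1 choice, except the DESeq2 Wald test, which brings its own size factors. Chst5 is included in the member counts that follow, though it passed the filter on low counts only through DC.GC, where it was high. Members called higher in goblet cells stayed at 5 in DC and at 2 to 3 in Si8. Without Chst5 the main fit had 4 in DC and 2 in Si8. Members called lower ranged from 2 to 4 in DC. In Si8 they were 3 with library totals only, and 3 to 6 (5 with all libraries) when 1 library was left out. Of all genes in the main fit, 27.8% were higher and 27.9% lower in DC, and 33.1% and 31.8% in Si8. Of 253 gene values of the DC goblet effect, 246 kept direction and call, 4 lost the call and 3 changed sign; of 230 in Si8, 209 kept both, 19 lost the call and 2 gained it. Between goblet sorts 14 of 253 gained a call, and between the other sorts 1 did. Sign changes were limited to values that missed the threshold: Papss1 in DC at -0.00143 with DESeq2 size factors, -0.00151 with the DESeq2 Wald test and -0.0364 to 0.0628 leaving out a library; Chst4 between the other sorts at 0.25 with library totals, 0.0207 with 2 groups alone, 0.00434 without mitochondrially encoded genes, 0.0182 without Muc2 and Fcgbp and -0.27 to 0.28 leaving out a library; Gal3st2b there at -1.21 to 0.0149; and the difference of goblet effects of Chst4 at -0.12 to 0.43. With library totals, Gal3st1 in Si8 (adjusted p = 0.0590) and Papss2 in DC (0.0554) missed. Papss1 and Slc26a2 then passed as higher in DC.GC than in Si8.GC (log2 0.53 and 0.56). Both also passed with these 2 groups fitted alone (log2 0.19 and 0.22) and without any 1 of the Si8.EC libraries. Papss1 passed as well without Muc2 and Fcgbp or without Si8.GC S6. In the other alternatives both missed, as in the main fit. Members called higher in DC.GC than in Si8.GC ranged from 6 to 8. Scaling by library totals moved the median of all genes to 0.32 in that comparison, against -0.02. With it, 7686 genes were higher and 2711 lower in DC.GC, against 4902 and 5041. The cause was not tested. Without the filter on low counts, Slc26a1 was called lower in goblet cells, at -2.47 ± 0.75 in DC (adjusted p = 0.00504) and -1.65 ± 0.60 in Si8 (adjusted p = 0.0231). Slc26a1 had 4 to 27 counts per group and Chst5 0 to 77, so depth limits both. No paired analysis was possible because the S numbers in the titles are not shared between groups; the sorts have neighbouring S numbers, but no label ties these to a shared mouse or day.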
